A study of Mus musculus with 12 samples.

Results

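The matrix metalloproteases (MMPs), the ADAM and ADAMTS metalloproteases and their tissue inhibitors (TIMPs) were followed across the 4 groups of the series. Members were taken by symbol from the deposited count table: Mmp followed by digits with or without a letter, Adam or Adamts followed by digits, and Timp1 to Timp4. This gave 73 of the 77175 genes of the table, made up of 23 MMPs, 27 ADAMs, 19 ADAMTSs and 4 TIMPs. No measured value entered the choice. A further 7 Adam symbols with a letter after the digits fall outside it. Of these, 2 had at least 10 counts, and the highest group mean was 3.74 CPM (counts scaled by library total).

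The 12 mouse libraries form 4 groups of 3, from melanoma-bearing NOD-SCID mice, which lack T and B cells of their own but keep myeloid cells and stroma. All mice had received OT-1 CD8+ T cells (genotype C57BL/6J-OT-I) activated with anti-CD3 and anti-CD28 beads. B16-F10 tumor cells carried the lentiviral construct pLV[Exp]-Puro-EF1A>GCaMP6s, a calcium reporter under a ubiquitous promoter. OVA tumor cells were B16-F10 cells with that construct and a second one, pLV[Exp]-Neo-EF1A>{ovalbumin}, which encodes the antigen that OT-1 T cells recognise. Mice were killed 2 days after this transfer and their tumors were dissociated with collagenase and hyaluronidase. Melanoma cells were then isolated by FACS on GCaMP6s, giving the tumor cell groups B16-F10 and OVA. T cells were captured from the suspensions with CD8 beads, giving T cells from B16-F10 tumors and T cells from OVA tumors. Group membership rests on the labels, which do not give ages, whether the lines are clonal or whether libraries of a group came from separate mice. What the p-values below measure is thus the spread of these libraries alone, and that spread may be technical.

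MMPs are secreted or membrane-bound zinc proteases that cut collagens, gelatin, elastin and other matrix proteins, and most are made as inactive proenzymes. ADAMs are membrane proteins, several of which shed the outer part of cytokines, receptors and adhesion molecules, while ADAMTSs are secreted enzymes that process proteoglycans, procollagens and von Willebrand factor. TIMPs bind the active sites of these enzymes, and Timp3 protein stays attached to the matrix and also inhibits several ADAMs and ADAMTSs. In tumors these genes are known from cancer cells as well as from fibroblasts, vessels and infiltrating myeloid cells.

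In RefSeq gene order on GRCm38.p6, 10 of the MMP genes are direct neighbours on chromosome 9: Mmp13, Mmp12, Mmp1b, Mmp3, Mmp1a, Mmp10, Mmp8, Mmp27, Mmp20 and Mmp7. Their promoters are a textbook case of AP-1 motifs, the sites bound by Fos and Jun proteins. The letters TGANTCA, read on both strands, occur in the 250 bases before the annotated start of 8 of these 10 genes, 35 to 95 bases upstream, and not in that window of Mmp8 or Mmp27. Sequences are from RefSeq on build GRCm38.p6, which differs from the GRCm39 build of the counts. They are printed 5′ to 3′ on the gene's own strand, with the motif in capitals. Shown are the 4 motif genes of the cluster that were detected here and the silent pair Mmp1a and Mmp1b. The sequences of Mmp13, Mmp12 and Mmp3 run up to the base before the start. Those of Mmp10, Mmp1a and Mmp1b are cut at 117 bases and end short of it, so motif positions cannot be counted from their ends.
Mmp13 (chr9:7272424-7272513, plus strand): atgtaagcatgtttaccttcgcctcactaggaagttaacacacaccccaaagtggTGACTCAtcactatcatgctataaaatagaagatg
Mmp12 (chr9:7347275-7347373, plus strand): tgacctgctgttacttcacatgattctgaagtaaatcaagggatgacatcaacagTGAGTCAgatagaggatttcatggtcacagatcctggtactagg
Mmp3 (chr9:7445721-7445821, plus strand): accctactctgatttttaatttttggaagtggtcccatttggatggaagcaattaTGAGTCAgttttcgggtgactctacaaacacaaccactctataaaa
Mmp10 (chr9:7502224-7502340, plus strand): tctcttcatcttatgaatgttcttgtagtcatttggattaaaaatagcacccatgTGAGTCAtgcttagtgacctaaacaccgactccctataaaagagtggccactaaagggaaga
Mmp1a (chr9:7464013-7464129, plus strand): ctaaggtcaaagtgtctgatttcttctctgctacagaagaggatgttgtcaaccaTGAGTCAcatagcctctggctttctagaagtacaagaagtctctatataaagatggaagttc
Mmp1b (chr9:7388058-7388174, minus strand): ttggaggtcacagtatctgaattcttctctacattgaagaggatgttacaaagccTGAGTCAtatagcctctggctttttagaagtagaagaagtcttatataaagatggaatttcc
The motif lay 35 bases before the start of Mmp13, 44 before Mmp12, 46 before Mmp3, 63 before Mmp10, 73 before Mmp1a and 93 before Mmp1b. A promoter entry was matched for 44 of the 73 members. The same letters occurred in 6.75% of the 32851 promoter windows of the table and in 24.5% of the 49 windows of matched members. Outside the cluster 4 of 34 matched members had it (Adam19, Adam20, Adam25 and Adam29). In Adam19 the match overlapped a match to the MITF E-box letters TCANGTG, which occurred in 8.16% of member windows and in 12.2% of all windows. The cyclic AMP response element TGACGTCA was found in 0 of the 49 member windows, against 1.55% of all windows. These matches describe sequence only.

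Of the 10 neighbours, Mmp1a and Mmp1b had 0 counts in all libraries and Mmp20 and Mmp7 had 1 count each. The other 6 were detected, including Mmp8 and Mmp27, which lack the letters. Per kilobase of exon, the scale on which levels of different genes can be set side by side, the cluster was lowest in B16-F10 tumor cells, where Mmp3 led with 0.184 CPM per kilobase and Mmp12 followed with 0.117. In OVA tumor cells Mmp12, macrophage elastase, led with 4.64 CPM per kilobase, ahead of Mmp13 with 2.91 and Mmp3 with 2.01. In T cells from B16-F10 tumors Mmp3 led with 6.82, ahead of Mmp13 with 3.93 and Mmp12 with 1.65 CPM per kilobase. In T cells from OVA tumors Mmp3 led with 2.34, ahead of Mmp13 with 1.80, Mmp10 with 0.522 and Mmp12 with 0.365 CPM per kilobase.

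**Figure D1:**
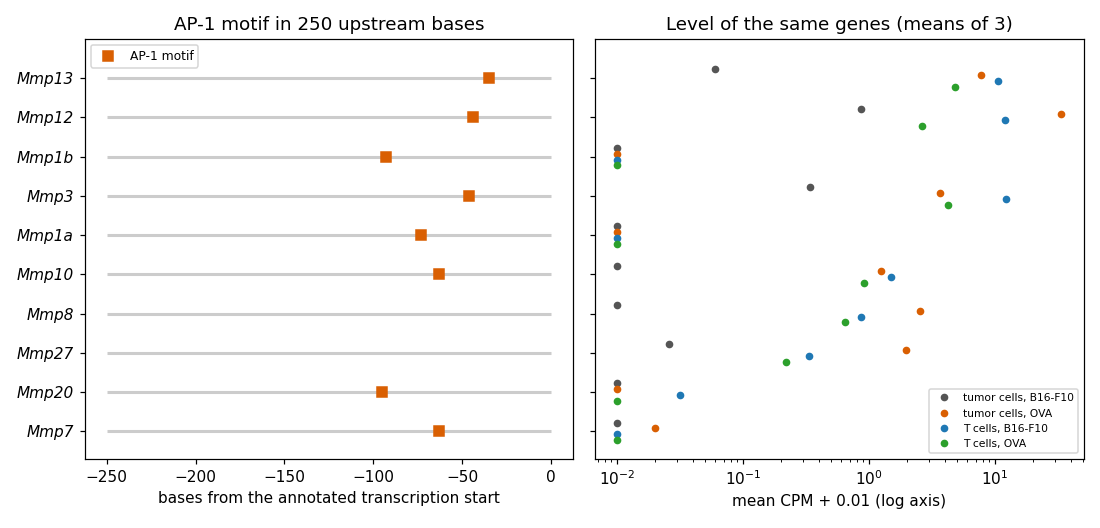
Left, the position of the AP-1 letters TGANTCA (squares) in the 250 bases before the annotated start of the 10 neighbouring MMP genes, in bases from the start. Right, the mean CPM plus 0.01 of 3 libraries per group for the same genes on a log axis, with genes at 0 counts drawn at 0.01. The 8 motifs lie 35 to 95 bases upstream, and the B16-F10 tumor cell points are the lowest or at 0 for all 6 detected genes.

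Library totals ran from 15494683 to 33263730 counts, and 3 counts, the limit a count of 0 allows, correspond to 0.0390 to 0.0572 CPM over the 3 libraries of a group. The groups differed in marker genes of other cell types. T cell marker sums were 4.28 to 4.91 CPM in B16-F10 tumor cells, with Cd3e, Trac, Trbc2 and Cd2 at 0, and 113 to 119.9 CPM in OVA tumor cells, against 817 to 855 CPM in the T cell groups. Melanoma marker sums fell in the order 23384 to 23469, 9967 to 9982, 241 to 249 and 106 to 112 CPM for B16-F10 tumor cells, OVA tumor cells, T cells from B16-F10 tumors and T cells from OVA tumors. The 10 endothelial markers summed to 309.9 to 311 CPM in B16-F10 tumor cells, with Emcn and Cldn5 at 0, to 4108 to 4164 in OVA tumor cells and to 9372 to 10074 in the T cell groups. The 10 fibroblast markers summed to 78.4 to 85.0, 2172 to 2189.9 and 5376 to 5882 CPM in the same order, and the 8 pericyte markers to 73.9 to 83.2, 1620.2 to 1644 and 3951 to 4613 CPM. Thus by these sums the libraries labelled CD8+ T cells held more endothelial and fibroblast marker RNA than T cell marker RNA. The fibroblast sum there came mostly from Col1a1, Col1a2, Col3a1, Col6a1 and Thy1. Pdgfra, Dcn, Lum and Dpt were at 3.55, 10.5, 2.02 and 2.59 CPM in T cells from B16-F10 tumors. Within OVA tumors 6 of the 10 fibroblast markers were higher in T cells than in tumor cells and 3 lower, against 38.2% and 41.1% of all genes. The 10 macrophage markers were highest in OVA tumor cells, at 1804 to 1814 CPM, against 12.6 to 13.3 in B16-F10 tumor cells, 372 to 381 in T cells from B16-F10 tumors and 256 to 266 in T cells from OVA tumors. The 8 neutrophil markers followed with 238 to 241, 1.08 to 1.55 (Ly6g, Retnlg and Mpo at 0), 40.2 to 43.5 and 72.3 to 75.9 CPM in the same order. Their part in the results below was not tested. In such bulk libraries, fewer cells of a type and less RNA per cell cannot be told apart.

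Of the 73 members, 11 had 0 counts in all libraries: Mmp1a, Mmp1b and the 9 ADAMs Adam2, Adam3, Adam7, Adam18, Adam20, Adam24, Adam25, Adam29 and Adam39. Another 4 (Adam34, Adamts19, Mmp7 and Mmp20) had fewer than 10 counts in total, which leaves 58 detected members. At least 5 CPM in some group was reached by 34 members: 10 MMPs, 9 ADAMs, 12 ADAMTSs and 3 TIMPs. The number at that level was 18 in B16-F10 tumor cells, 30 in OVA tumor cells, 32 in T cells from B16-F10 tumors and 29 in T cells from OVA tumors. The highest mean of those 34 fell in T cells from B16-F10 tumors for 16 genes, in OVA tumor cells for 10, in T cells from OVA tumors for 7 and in B16-F10 tumor cells for 1, Adamts20. The libraries of the highest group lay above all of the next group for 16, 8, 3 and 1 of these genes, in that order.

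Summed over all 73 members, the families took 1715 ± 10.2 CPM (SD, n = 3) in B16-F10 tumor cells, 3939 ± 13.8 in OVA tumor cells, 7253 ± 47.3 in T cells from B16-F10 tumors and 7467 ± 28.2 in T cells from OVA tumors. ADAMTS genes were the largest share in each group. MMP sums were 169 ± 1.18, 589 ± 2.68, 962 ± 7.75 and 613 ± 2.80 CPM in that order, so T cells from OVA tumors were much nearer to OVA tumor cells than to the other T cell group. The TIMP sum was higher at each step of the same order, from 208 ± 2.30 over 691 ± 4.27 and 1073 ± 6.19 to 1925 ± 9.30 CPM. The makeup of the CPM, to which longer genes add more, also differed. Timp2 gave 88.9% of TIMP CPM in B16-F10 tumor cells, whereas Timp3 gave 59.8%, 88.4% and 94.2% in the other 3 groups. Mmp14 gave 91.8% of MMP CPM in B16-F10 tumor cells and 52.6% in OVA tumor cells. Adamts1 gave 84.0% of ADAMTS CPM in B16-F10 tumor cells and 40.0% in OVA tumor cells.

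**Figure D2:**
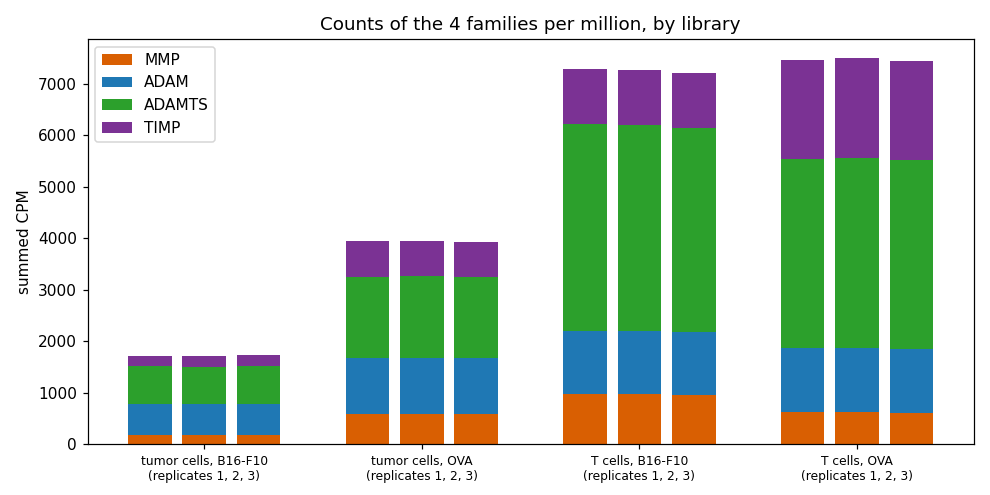
Summed CPM of the MMP, ADAM, ADAMTS and TIMP genes in each of the 12 libraries, stacked by family, 3 bars per group. B16-F10 tumor cell bars reach 1703 to 1723 CPM and OVA tumor cell bars 3923 to 3949 CPM, below the T cell bars at 7200.0 to 7495 CPM.

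Over all members, levels per kilobase used exon lengths of the GENCODE M21 gene models. In B16-F10 tumor cells Adamts1 was highest with 116 CPM per kilobase, ahead of Timp2 with 47.5, Adam9 with 34.5, Adam10 with 28.8 and Mmp14 with 26.1. In OVA tumor cells Adamts1 stayed at 119 CPM per kilobase, with Adamts4 next at 93.7, then Timp2 at 63.8, Mmp14 at 52.0, Adam9 at 51.3 and Timp3 at 50.7. In both T cell groups Adamts4 and Adamts1 led, with 273 and 270.3 CPM per kilobase from B16-F10 tumors and 270.4 and 229.5 from OVA tumors. Timp3 came next there, with 116 and 223 CPM per kilobase.

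The first comparison set OVA tumor cells against B16-F10 tumor cells. With edgeR's quasi-likelihood test and Benjamini-Hochberg adjustment over all 17418 genes tested, 42 of the 48 members tested rose and 2 fell at an adjusted p under 0.05, against 42.0% of all genes higher and 37.4% lower (79.4% in either direction). Beyond 2-fold (edgeR's glmTreat) 30 members were higher and 1 lower, against 22.2% and 4.58% of all genes. The lower one, Adamts13, did not pass beyond 2-fold without OVA replicate 1, which left 0. Scaled to the melanoma markers instead, 47 members were higher and 0 lower, and the share of higher among all called genes went from 52.9% to 96.8%. The median log2 difference was 2.73 for members and 0.04 for all genes tested. By family, 15 of 16 MMPs, 11 of 14 ADAMs, 13 of 15 ADAMTSs and all 3 tested TIMPs were higher. Lower were Adamts13, which cuts von Willebrand factor, and Adamts20, a proteoglycan-cutting enzyme known from melanoblast development. The 4 not called were Adam4, Adam28, Adam33 and Mmp11. Members that passed the low-count filter only through their OVA libraries had to differ, so these counts are a description of the tested members. In the same comparison all 10 melanoma markers were lower and all 10 endothelial, 10 fibroblast, 10 macrophage and 8 pericyte markers were higher.

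The second comparison set T cells from OVA tumors against T cells from B16-F10 tumors. Here 15 of 46 tested members rose and 17 fell, against 23.7% and 22.4% of the 16536 genes tested (46.1% in either direction). With library totals alone 10 were higher and 19 lower, and the share of higher among all called genes went from 51.3% to 38.7%. Beyond 2-fold, 0 were higher and 3 lower (Mmp3, Mmp12 and Adamts5), against 1.79% and 0.931% of genes. The median log2 difference was -0.05 for members and -0.01 for all genes. Among 15 tested MMPs, Mmp9 was higher and 7 were lower. The ADAMs split into 5 higher and 4 lower of 12, the ADAMTSs into 7 and 5 of 15, and the TIMPs into 2 and 1 of 4. Of the members tested in both OVA comparisons, 12 were higher in both, 17 were higher in tumor cells and lower in T cells, 11 were higher in tumor cells and not called in T cells, and 3 were called in neither. Matching joint shares of all genes are not given, so whether these joint counts are particular to the members was not tested.

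Whether the OVA difference itself differed between the cell fractions was tested over all 12 libraries. It was lower in T cells than in tumor cells for 43 of 49 tested members and higher for 1, Adamts13, against 41.3% and 27.7% of the 18562 genes tested (69.0% in either direction). Without replicate 2 of the T cells from OVA tumors, 0 were higher. Beyond 2-fold these counts were 31 and 0, against 23.4% and 3.40% of genes. The 5 members not called were Adamts6, Adamts18, Adamts20, Mmp11 and Timp4. The median was -2.99 for members and -0.16 for all genes, on the log2 scale. The direction was not particular to the members. All 10 T cell, 10 endothelial, 10 fibroblast, 10 macrophage, 8 pericyte and 6 tested neutrophil markers were lower too. Of the 10 melanoma markers 3 were higher and 1 lower. The part of RNA of other cell types was not tested. Members such as Adamts3, Adamts8 and Mmp10 had 0 counts in B16-F10 tumor cells and passed the low-count filter only through other groups. The member counts are thus a description of the tested members here too.

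**Figure D3:**
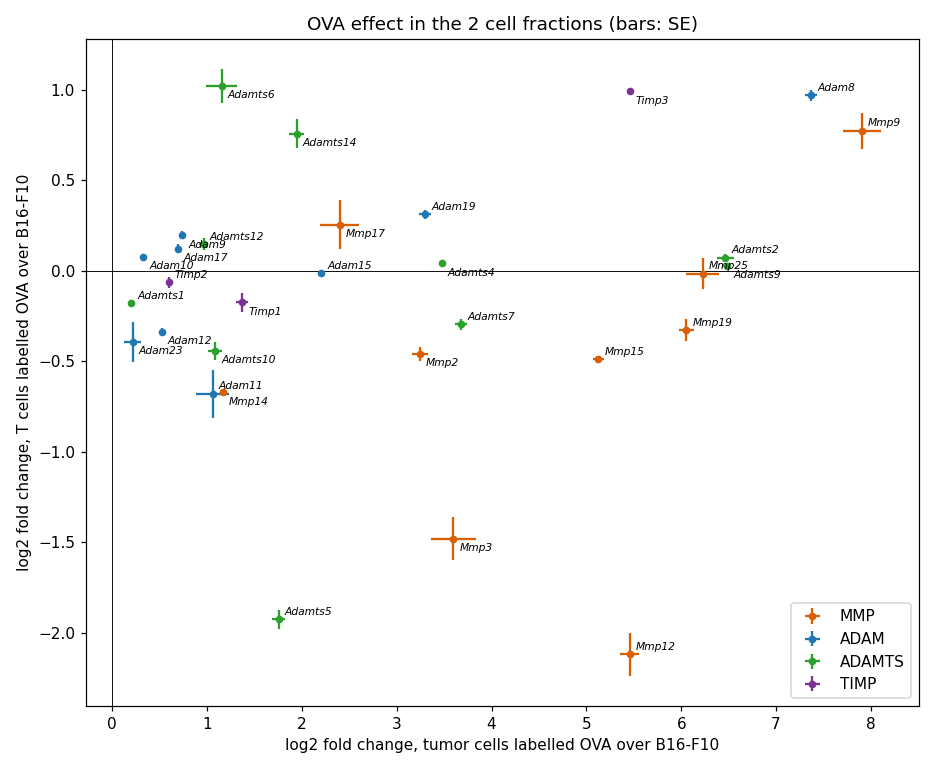
Log2 fold change of OVA over B16-F10 in tumor cell libraries (x axis) and in T cell libraries (y axis) for 31 named members. These were tested in both without a count of 3 or fewer in a group, and are colored by family. Bars are approximate SE, the absolute log2 difference divided by the square root of its F statistic. All 31 points lie right of 0 on the x axis, and Timp3, Adam8, Mmp9, Adamts6 and Adamts14 stand highest on the y axis with Mmp12, Adamts5 and Mmp3 lowest.

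Between fractions, T cells from B16-F10 tumors were set against B16-F10 tumor cells. Of 46 tested members 39 were higher and 3 lower (Adamts13, Adamts20 and Timp2), against 45.4% and 42.3% of the 17099 genes tested (87.7% in either direction). Beyond 2-fold, 35 were higher and 2 lower, against 28.1% and 18.0% of genes. The median log2 difference was 3.40 for members and 0.06 for all genes. Adamts3, Adamts8, Mmp8 and Mmp10 had 0 counts in B16-F10 tumor cells and passed the low-count filter only through T cell libraries. Such members had to differ, so these counts are a description of the tested members. With OVA tumors, 29 of 50 tested members were higher in T cells and 19 lower, against 38.2% and 41.1% of the 17947 genes tested (79.2% in either direction). Beyond 2-fold, 12 were higher and 7 lower, against 11.0% and 12.6% of genes, and the median was 0.38 for members and -0.03 for all genes. The 7 lower ones were Mmp8, Mmp12, Mmp19, Mmp27, Adamts13, Adamts20 and Timp2. Of the members tested in both, 27 were higher in T cells in both models, 10 were higher with B16-F10 and lower with OVA, 2 were higher with B16-F10 and not called with OVA, 3 were lower in both, and 4 were not called with B16-F10 and lower with OVA. These joint counts, too, are given without matching shares of all genes.

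**Figure D4:**
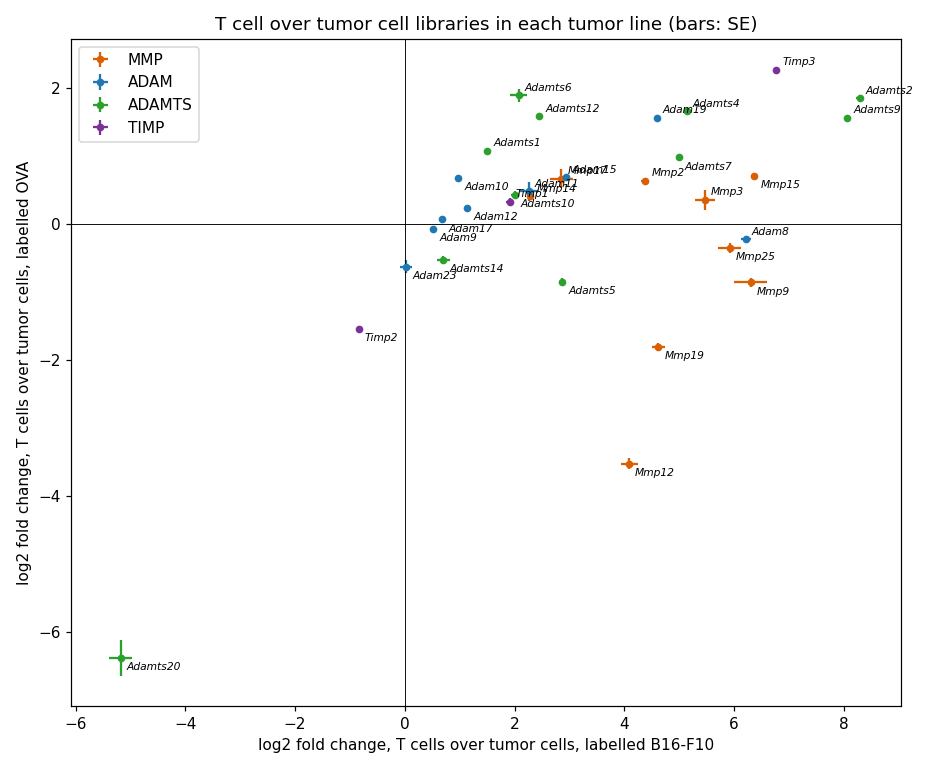
Log2 fold change of T cell over tumor cell libraries in B16-F10 tumors (x axis) and OVA tumors (y axis) for 32 named members, colored by family. Bars are approximate SE, the absolute log2 difference divided by the square root of its F statistic. Adamts20 lies farthest to the lower left, and Timp2 is also negative on both axes but nearer the origin. Mmp12 and Mmp19 are high on the x axis and lowest of the plotted MMPs on the y axis, and Timp3 and Adamts2 lie at the upper right.

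Among the inhibitors, Timp3 had the widest range. Its level was 10.4, 10.9 and 10.3 CPM in the B16-F10 tumor cell libraries, 416, 409.5 and 414 in OVA tumor cells, 954, 949.9 and 942 in T cells from B16-F10 tumors and 1811, 1824 and 1803 in T cells from OVA tumors. No group overlapped another, and each step was many times the spread within groups. Timp3 rose by 5.46 on the log2 scale in OVA tumor cells (SE 0.0291, adjusted p = 3.45e-33, edgeR) and by 0.99 in T cells (SE 0.0119, adjusted p = 2.39e-29). SE here and below is approximate, the absolute log2 difference divided by the square root of its F statistic. For large differences it can fall below counting error. The OVA difference was 4.47 log2 units smaller in T cells than in tumor cells (interaction -4.47, SE 0.0326, adjusted p = 5.32e-34). In the same T cell comparison, 4 of 10 endothelial, 1 of 10 fibroblast and 1 of 8 pericyte markers were higher and 5, 6 and 5 lower. Of all genes tested 23.7% were higher and 22.4% lower. The part of RNA of these cell types in the Timp3 values was not tested.

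Timp2, which also takes part in the activation of proMMP2 by Mmp14, was the only TIMP with higher means in tumor cells than in T cells. It measured 187, 182 and 186 CPM in B16-F10 tumor cells and 250.2, 249 and 247 in OVA tumor cells. In T cells it measured 83.9, 85.5 and 85.5 CPM from B16-F10 tumors and 79.1, 75.1 and 79.4 from OVA tumors. The 6 tumor cell libraries lay above all 6 T cell libraries. Timp2 was lower in T cells by -0.84 on the log2 scale in B16-F10 tumors (SE 0.0255, adjusted p = 6.95e-22, edgeR) and by -1.55 in OVA tumors (SE 0.0226, adjusted p = 9.56e-26). It rose by 0.60 in OVA tumor cells (adjusted p = 7.30e-19), and the T cell groups differed by -0.06 (adjusted p = 0.0940), which did not pass the threshold, though it did with library totals alone (-0.12, adjusted p = 0.00206).

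Timp1, a secreted inhibitor induced in inflamed tissue, had means of 12.5 ± 0.783, 28.9 ± 1.81, 38.8 ± 1.58 and 33.3 ± 2.11 CPM (SD, n = 3) in B16-F10 tumor cells, OVA tumor cells, T cells from B16-F10 tumors and T cells from OVA tumors. It rose by 1.37 in OVA tumor cells (SE 0.0629, adjusted p = 2.29e-15, edgeR). Its fall of 0.17 on the log2 scale in T cells (log2 difference -0.17, adjusted p = 0.00725) was lost without replicate 1 of the OVA group (-0.12, adjusted p = 0.0947) or of the B16-F10 group (-0.13, adjusted p = 0.0749). Timp4 stayed at or below 1.00 CPM in each group mean. Its T cell difference of 0.83 (adjusted p = 0.0431) did not pass without replicate 1, 2 or 3 of the OVA group (edgeR adjusted p = 0.0685, 0.134 and 0.0780) or replicate 1 or 2 of the B16-F10 group (0.165 and 0.159), nor with a replicate block (adjusted p = 0.0540).

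The membrane-type MMPs were led by Mmp14, which cuts collagen at the cell surface. Mmp14 measured 153, 155 and 158 CPM in B16-F10 tumor cells, 309.9, 309.8 and 309.9 in OVA tumor cells, 625, 627 and 613 in T cells from B16-F10 tumors and 377, 376 and 373 in T cells from OVA tumors. The 4 groups were separate, with the T cells from B16-F10 tumors on top. Mmp14 rose by 1.17 in OVA tumor cells (SE 0.0179, adjusted p = 1.13e-24, edgeR) and fell in T cells (log2 difference -0.67, SE 0.0153, adjusted p = 4.93e-23). Mmp15, a related membrane-type enzyme, followed the same order with a far lower start: 2.83 ± 0.169, 87.7 ± 2.73, 192 ± 1.65 and 132 ± 1.17 CPM. It rose by 5.13 in OVA tumor cells (SE 0.0619) and its T cell difference was -0.49 (SE 0.0215), both called.

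Mmp25, a glycosylphosphatidylinositol-anchored enzyme known from neutrophils, was at 0.187 ± 0.0285 CPM in B16-F10 tumor cells, 12.9 ± 0.487 in OVA tumor cells, 9.75 ± 0.229 in T cells from B16-F10 tumors and 9.30 ± 0.425 in T cells from OVA tumors. It rose by 6.22 in OVA tumor cells (SE 0.173, adjusted p = 1.21e-19, edgeR), and the T cell groups overlapped (log2 difference -0.02, adjusted p = 0.906). Mmp17, also anchored in this way, rose from 0.761 ± 0.144 to 3.57 ± 0.460 CPM in tumor cells (log2 difference 2.40), and its T cell groups, at 4.53 ± 0.243 and 5.17 ± 0.652 CPM, overlapped (0.25, adjusted p = 0.128). Mmp16 was near the limit of detection, with 1, 14, 0 and 3 counts in all per group.

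The gelatinases Mmp2 and Mmp9 cut denatured collagen and basement membrane collagen, Mmp2 typically from stromal cells and Mmp9 from neutrophils and macrophages. Mmp2 measured 3.85, 3.49 and 2.80 CPM in B16-F10 tumor cells, 28.3, 29.9 and 28.5 in OVA tumor cells, 58.3, 59.7 and 56.7 in T cells from B16-F10 tumors and 41.3, 40.6 and 40.4 in T cells from OVA tumors. Mmp9 measured 0.141, 0.129 and 0 CPM, then 20.1, 21.4 and 22.9, then 6.22, 6.27 and 7.29, and last 9.93, 11.6 and 11.0 CPM in the same order. Mmp2 was therefore highest in the T cells from B16-F10 tumors and Mmp9 in the OVA tumor cells, with no overlap between groups for either gene. Both rose in OVA tumor cells, Mmp2 by 3.25 (SE 0.0825, adjusted p = 2.21e-20, edgeR) and Mmp9 by 7.91 (SE 0.196, adjusted p = 1.34e-20). In T cells they went opposite ways, Mmp2 with a log2 difference of -0.46 (SE 0.0396, adjusted p = 1.94e-10) and Mmp9 of 0.77 (SE 0.0996, adjusted p = 2.90e-07). Neutrophil markers moved with Mmp9: 6 of 6 tested were higher in OVA tumor cells and 5 of 6 in T cells from OVA tumors, against 42.0% and 23.7% of all genes. All 10 macrophage markers were higher in OVA tumor cells, but in T cells from OVA tumors 8 of 10 were lower and 0 higher, against 22.4% and 23.7% of all genes. Mmp8 and Mmp25, also known from neutrophils, were not called in T cells. The part of neutrophil or macrophage RNA in the Mmp9 values was not tested.

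Of the neighbouring MMP genes on chromosome 9, Mmp12 showed the largest fall in T cells. It measured 0.705, 0.991 and 0.844 CPM in B16-F10 tumor cells, 32.5 to 35.2 in OVA tumor cells (mean 33.5), 12.7, 11.8 and 11.2 in T cells from B16-F10 tumors and 2.47, 2.62 and 2.84 in T cells from OVA tumors. OVA tumor cells were highest and the 4 groups were separate. Mmp12 rose by 5.45 in OVA tumor cells (SE 0.102, adjusted p = 5.77e-23, edgeR) and fell in T cells (log2 difference -2.12, SE 0.117, adjusted p = 1.62e-14). Within OVA tumors it was lower in T cells than in tumor cells by -3.53 (SE 0.0799, adjusted p = 6.46e-22), whereas within B16-F10 tumors it was higher by 4.09 (SE 0.154, adjusted p = 1.16e-19). All 10 macrophage markers were higher in OVA tumor cells, 8 of 10 were lower in T cells from OVA tumors, and all 10 were lower in T cells than in tumor cells of OVA tumors. The matching shares of all genes were 42.0%, 22.4% and 41.1%. The part of macrophage RNA was not tested.

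Mmp3, stromelysin 1, measured 12.3, 11.6 and 12.9 CPM in T cells from B16-F10 tumors and 5.07, 4.24 and 3.35 in T cells from OVA tumors, a log2 difference of -1.48 (SE 0.117, adjusted p = 3.59e-11, edgeR). In tumor cells it rose from 0.331 ± 0.0394 to 3.62 ± 0.348 CPM (log2 difference 3.60, SE 0.239, adjusted p = 2.57e-12). Its T cell and tumor cell libraries overlapped in OVA tumors, and the call there (0.35, adjusted p = 0.0389) was lost without replicate 1 or 2 of the tumor cells (adjusted p = 0.145 and 0.122) or of the T cells (0.333 and 0.0764), and with a replicate block (0.0539). Mmp13, collagenase 3, fell in T cells from 10.5 ± 0.257 to 4.82 ± 0.222 CPM (log2 difference -1.07, SE 0.101, adjusted p = 1.11e-09). In B16-F10 tumor cells it had 3 counts in all against 599 in OVA tumor cells, a CPM ratio of 165 with a 95% Clopper-Pearson counting interval of 56.1 to 801. Such intervals, like the limit of 3 counts, cover counting error only.

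Among the cluster genes below 5 CPM, Mmp8, neutrophil collagenase, had 0 counts in B16-F10 tumor cells and 194 in OVA tumor cells, at least 53.4-fold higher against a limit of 3 counts over the group. Mmp10, stromelysin 2, had 0 and 97 counts, at least 26.7-fold higher. Mmp27 had 1 and 147 counts, a ratio of 121 with an interval of 21.4 to 4824. Mmp8 and Mmp27 were highest in OVA tumor cells, with means of 2.52 and 1.95 CPM, and Mmp10 was at 1.24 CPM there and 1.47 CPM in T cells from B16-F10 tumors. Outside the cluster, Mmp19 rose to 67.4 ± 1.42 CPM in OVA tumor cells from 1.12 ± 0.196 in B16-F10 tumor cells (log2 difference 6.05, SE 0.0792, adjusted p = 5.30e-26). In T cells Mmp19 was at 23.0 ± 0.306 and 17.6 ± 1.05 CPM (-0.33, adjusted p = 5.96e-05). Mmp11, stromelysin 3, was flat in tumor cells, at 2.98 ± 0.257 and 2.98 ± 0.0849 CPM (0.17, adjusted p = 0.307).

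**Figure D5:**
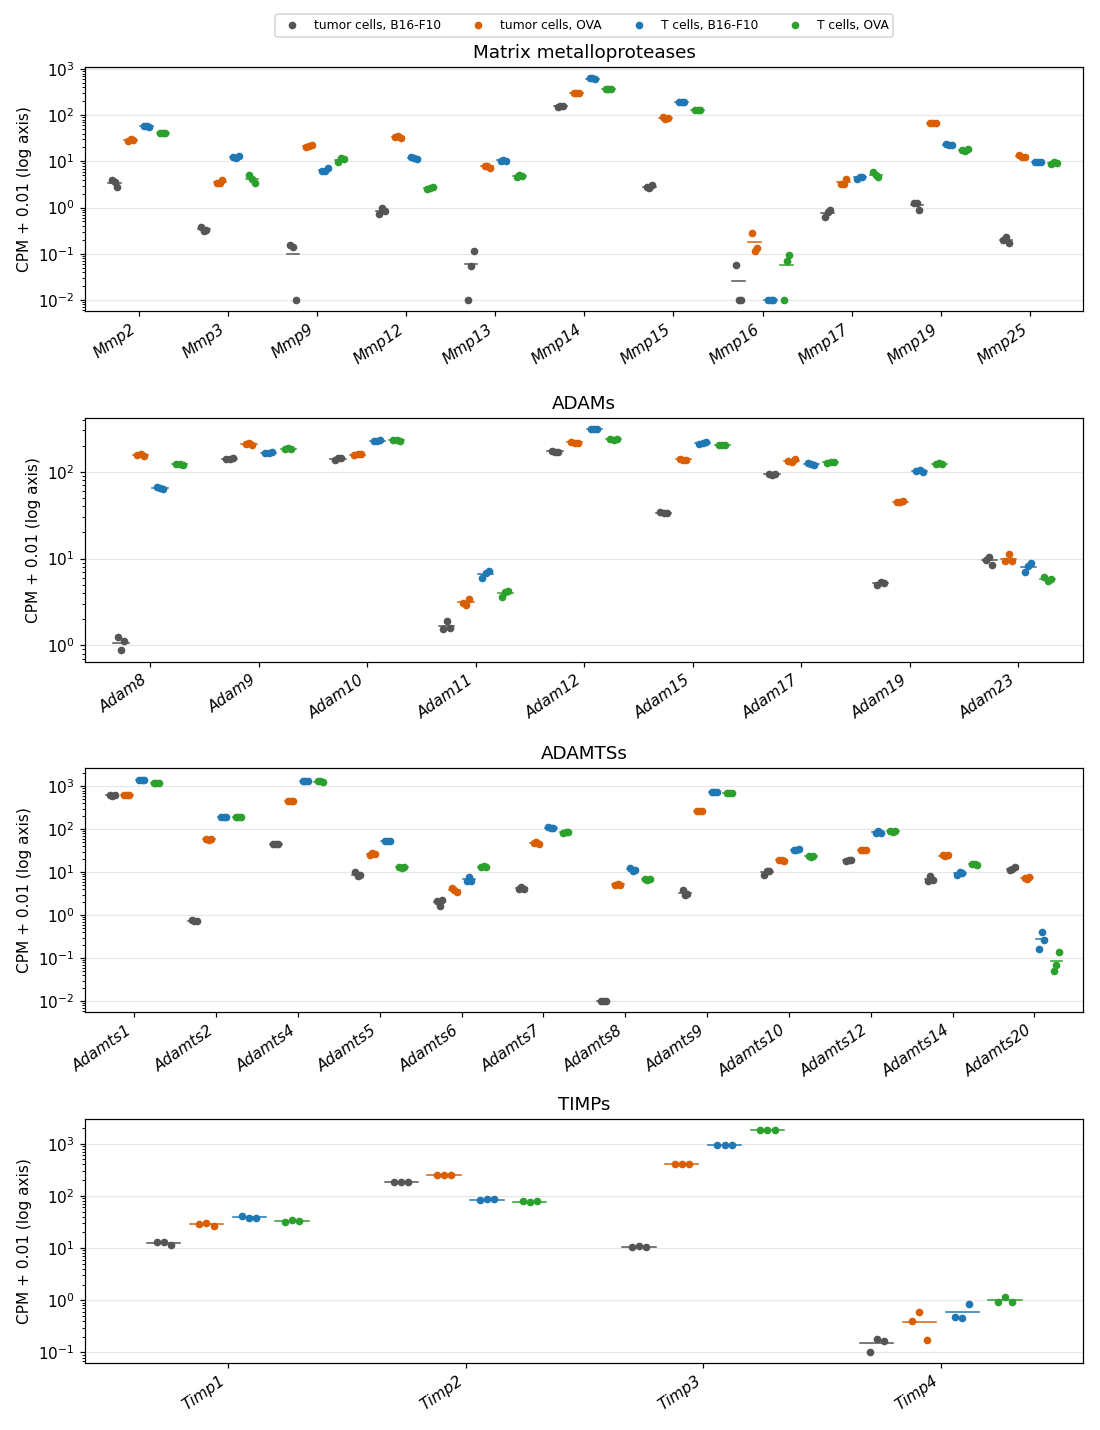
CPM plus 0.01 of each named member in every library on log axes, in panels for MMPs, ADAMs, ADAMTSs and TIMPs. Points are libraries, lines are means of 3 libraries, and colors are the 4 groups. B16-F10 tumor cells are lowest for most genes, while Adamts20 and Timp2 are higher in the tumor cell groups than in the T cell groups.

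Adam8, a protease of myeloid cells and activated lymphocytes, showed the widest range of the ADAMs. It measured 1.22, 0.862 and 1.11 CPM in B16-F10 tumor cells, 155, 160.4 and 154 in OVA tumor cells, 66.0, 64.7 and 63.8 in T cells from B16-F10 tumors and 123, 124 and 120.3 in T cells from OVA tumors. OVA tumor cells lay highest and no groups overlapped. Adam8 rose by 7.37 in OVA tumor cells (SE 0.0627, adjusted p = 1.45e-29, edgeR) and by 0.97 in T cells (SE 0.0288, adjusted p = 1.88e-20). Like Mmp9, Adam8 was higher in the OVA group of both fractions and highest in the OVA tumor cells, the group with the highest macrophage and neutrophil marker sums. In T cells from OVA tumors, where Adam8 was higher, 8 of 10 macrophage markers were lower and 5 of 6 neutrophil markers higher. Of all genes tested there 22.4% were lower and 23.7% higher. The part of macrophage or neutrophil RNA in the Adam8 values was not tested.

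Adam10 and Adam17 are the main sheddases for Notch receptors, growth factors and TNF, and both were present in all groups. Adam10 had means of 142 ± 2.75, 158 ± 2.39, 229 ± 3.14 and 232 ± 2.92 CPM in B16-F10 tumor cells, OVA tumor cells, T cells from B16-F10 tumors and T cells from OVA tumors. Adam10 was called higher in T cells than in tumor cells in both models, without overlap of libraries. Its rise was 0.33 in OVA tumor cells (SE 0.0215, adjusted p = 2.21e-12, edgeR) and 0.08 in T cells (SE 0.0195, adjusted p = 0.00238), where the libraries of the groups overlapped and library totals alone gave no call (adjusted p = 0.459). Adam17 had means of 93.9 ± 1.51, 135 ± 5.07, 123 ± 2.62 and 129 ± 1.28 CPM. It rose by 0.69 in OVA tumor cells (SE 0.0274) and by 0.12 in T cells (SE 0.0245), both called.

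Adam9, Adam12 and Adam15 were also present in all groups. Adam9 was at 142 ± 1.78, 211 ± 6.84, 166 ± 1.05 and 183 ± 3.02 CPM, and rose in OVA tumor cells (0.74, SE 0.0226) and in T cells (0.20, SE 0.0213). Adam12, an ADAM of mesenchymal and regenerating muscle cells, was at 172 ± 3.50, 219 ± 3.76 and 311 ± 1.74 CPM and, in T cells from OVA tumors, at 236, 235 and 239 CPM. It was higher in OVA tumor cells (0.52, SE 0.0203) and lower in T cells from OVA tumors (-0.34, SE 0.0177). Adam15 was at 33.9 ± 0.402, 139 ± 1.09, 215 ± 3.87 and 204 ± 1.20 CPM, higher in OVA tumor cells (2.20, SE 0.0293) with a T cell difference of -0.01 (adjusted p = 0.619, edgeR), or -0.07 with library totals alone (adjusted p = 0.00505).

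Adam19 reached 123 ± 2.03 CPM in T cells from OVA tumors and 103 ± 2.14 in T cells from B16-F10 tumors (0.31, SE 0.0260, adjusted p = 9.72e-11, edgeR), from 5.17 ± 0.165 in B16-F10 and 45.4 ± 0.606 in OVA tumor cells (3.30, SE 0.0598). Adam11 and Adam23, which lack protease activity and are known from the nervous system, were low. Adam11 was highest in T cells from B16-F10 tumors at 6.68 ± 0.686 CPM and lower in T cells from OVA tumors at 4.00 ± 0.327 (-0.68, SE 0.130). Adam23 ran from 9.99 ± 1.05 CPM in OVA tumor cells to 5.81 ± 0.320 in T cells from OVA tumors. The Adam23 libraries of the tumor cell groups overlapped, and the call between them (0.22, adjusted p = 0.0392) was lost without B16-F10 replicate 1 or 3 (edgeR adjusted p = 0.0809 and 0.218) or OVA replicate 2 (0.155).

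The proteoglycan-cutting ADAMTSs Adamts1, Adamts4, Adamts5, Adamts8 and Adamts9 act on versican and aggrecan. Adamts1 was abundant in all groups: 619.7, 609 and 621 CPM in B16-F10 tumor cells, 629, 635 and 628 in OVA tumor cells, 1448, 1439 and 1413 in T cells from B16-F10 tumors and 1214, 1221 and 1216 in T cells from OVA tumors. The tumor cell groups lay close together but did not overlap, with a rise of 0.20 under TMM scaling (SE 0.0141, adjusted p = 7.28e-12, edgeR). The size of that rise depends on the scaling. Means by library total were 617 and 631 CPM, and library totals moved the median of all genes by -0.17 in this comparison. The T cell difference of Adamts1 was -0.18 (SE 0.0124, adjusted p = 1.98e-12). Adamts4 measured 45.5, 46.2 and 44.9, then 456, 449 and 448, then 1323, 1313 and 1308, and last 1306, 1306 and 1291 CPM. It rose by 3.48 in OVA tumor cells (SE 0.0218, adjusted p = 5.01e-32). Its T cell difference was 0.04 (adjusted p = 0.00609) with TMM scaling but -0.02 (adjusted p = 0.278) with library totals alone, so no direction is given. In tumor cells the difference between lines was thus far larger for Adamts4 than for Adamts1.

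Adamts9 was at 3.33 ± 0.543 CPM in B16-F10 tumor cells, 265 ± 3.39 in OVA tumor cells, 730.3 ± 6.72 in T cells from B16-F10 tumors and 716 ± 3.26 in T cells from OVA tumors. It rose by 6.48 in OVA tumor cells (SE 0.0443, adjusted p = 2.37e-31, edgeR), and the T cell difference was 0.03 (adjusted p = 0.119), or -0.03 with library totals alone. Without replicate 1 of the T cells from B16-F10 tumors it passed (0.04, adjusted p = 0.0498). Adamts5, the neighbour of Adamts1 in gene order, differed from it in T cells. It measured 53.3, 52.1 and 52.6 CPM from B16-F10 tumors and 13.6, 12.8 and 13.5 from OVA tumors. That fall (log2 difference -1.93, SE 0.0522, adjusted p = 2.48e-21) was the second largest of the named members after Mmp12. In tumor cells Adamts5 rose from 8.81 ± 1.00 to 26.6 ± 1.37 CPM (1.76, SE 0.0721, adjusted p = 2.58e-16).

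Adamts8 had 0 counts in B16-F10 tumor cells and 397 in OVA tumor cells, at least 109-fold higher against 3 counts over the group, and fell in T cells from 11.6 ± 1.04 to 6.82 ± 0.341 CPM (-0.71, SE 0.0956, adjusted p = 6.17e-07, edgeR). Its neighbour in gene order, Adamts15, had 2 and 108 counts in the tumor cell groups, a ratio of 44.6 with an interval of 12.0 to 373. Adamts20, like Adamts13, went the other way from most of its family. It measured 11.0, 12.2 and 12.9 CPM in B16-F10 tumor cells, 7.31, 7.04 and 7.93 in OVA tumor cells, 0.155, 0.396 and 0.258 in T cells from B16-F10 tumors and 0.0412, 0.0581 and 0.127 in T cells from OVA tumors. All 6 tumor cell libraries lay far above the T cell libraries, with log2 differences of -5.18 (SE 0.213) in B16-F10 and -6.38 (SE 0.263) in OVA tumors. It was lower in OVA than in B16-F10 tumor cells (-0.53, SE 0.0856, adjusted p = 7.10e-06), but when libraries were scaled to the melanoma markers it was higher (0.62). Melanoma marker sums moved in the same direction as Adamts20 CPM through all 4 groups.

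The procollagen-processing Adamts2 had 0.752, 0.732 and 0.739 CPM in B16-F10 tumor cells and 60.7, 56.7 and 58.2 in OVA tumor cells, a rise of 6.47 (SE 0.0877, adjusted p = 1.05e-25, edgeR). In T cells it stood at 192 ± 1.74 and 194 ± 1.92 CPM with overlapping libraries (0.07, adjusted p = 0.00477, and 0.02 with library totals, adjusted p = 0.566). The related Adamts14 was instead highest in OVA tumor cells at 24.5 ± 1.08 CPM, against 7.11 ± 0.990 in B16-F10 tumor cells (1.95, SE 0.0778), and rose in T cells from 9.59 ± 0.943 to 15.5 ± 0.429 CPM (0.76, SE 0.0810, adjusted p = 1.14e-08). Adamts13, a low gene here, measured 4.51, 4.09 and 4.06 CPM in B16-F10 tumor cells and 1.08, 1.49 and 1.65 in OVA tumor cells. Its libraries did not overlap and it fell (log2 difference -1.45, SE 0.179, adjusted p = 1.33e-07).

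Among the other ADAMTSs, Adamts6 had nearly the same OVA difference in both fractions. It rose from 1.98 ± 0.334 to 3.87 ± 0.355 CPM in tumor cells (1.15, SE 0.164, adjusted p = 1.08e-06, edgeR) and from 6.78 ± 0.833 to 13.3 ± 0.494 CPM in T cells (1.02, SE 0.0939, adjusted p = 6.75e-10). The test of the difference gave -0.14 (SE 0.182, adjusted p = 0.508), so a difference between fractions was not detected. Adamts7 rose from 4.18 ± 0.222 to 47.9 ± 1.82 CPM in tumor cells (3.68, SE 0.0655) and fell from 109.8 ± 1.26 to 86.1 ± 2.63 in T cells (-0.30, SE 0.0288). Adamts10 rose from 10.2 ± 1.16 to 19.2 ± 0.701 CPM in tumor cells (1.08) and fell from 33.4 ± 0.723 to 23.6 ± 0.403 in T cells (-0.44). Adamts12 rose from 19.1 ± 0.561 to 33.1 ± 0.463 CPM in tumor cells (0.97), and its T cell groups, at 85.4 ± 4.11 and 90.6 ± 3.77 CPM, overlapped (0.15, adjusted p = 9.47e-04).

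Genes around these enzymes were described from lists. Each count below is set against the same shares of all genes tested, 42.0% higher and 37.4% lower in OVA tumor cells and 23.7% higher and 22.4% lower in T cells from OVA tumors. Genes named from a list are called genes that reached 5 CPM in the higher group. In the plasminogen system, which activates several proMMPs, 9 of 10 tested genes were higher in OVA tumor cells and 0 lower, and in T cells 6 of 9 were higher and 1 lower. The median log2 difference was 4.71 in tumor cells and 0.49 in T cells, against 0.04 and -0.01 for all genes. Serpine2 was higher by 6.63 and Serpinb2 by 5.13 in OVA tumor cells, and in T cells Serpinb2 by 1.76 and Serping1 by 0.69. Plat, tissue plasminogen activator, was lower in T cells (-0.08).

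Of the list of other activators, inhibitors and partners, 12 of 19 tested genes were higher and 5 lower in OVA tumor cells, and 5 were higher and 8 lower in T cells, against 42.0%, 37.4%, 23.7% and 22.4% of all genes. The share higher in T cells was near that of all genes. Thbs1, thrombospondin 1, was higher in tumor cells by 5.80 (SE 0.0237), from 28.6 ± 1.70 to 1425 ± 3.19 CPM, and in T cells by 1.80 (SE 0.0117), from 895 ± 7.23 to 2995 ± 17.2 CPM. Pcsk6, a proprotein convertase, was higher in OVA tumor cells (7.08) and lower in T cells from OVA tumors (-0.96). Tfpi2 rose from 1 count in B16-F10 tumor cells to 17.2 ± 0.206 CPM in OVA tumor cells. Lower in OVA tumor cells were Bsg, the MMP inducer basigin (-0.76), Cd44, which can dock MMPs at the cell surface (-0.61), and Sdc2 (-0.85). In T cells Cd44 (0.56) and Pcsk5 (0.55) were higher, and Papln (-0.34) and Sdc2 (-0.34) lower.

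Of 11 regulators of the ADAM sheddases, 7 were higher and 2 lower in OVA tumor cells, against 42.0% and 37.4% of all genes. In T cells 2 were higher and 3 lower, near the 23.7% and 22.4% of all genes. Rhbdf2, the iRhom2 partner that carries ADAM17 to the surface, was higher by 1.75 in OVA tumor cells, as were the ADAM10 partners Tspan15 (1.72) and Tspan14 (1.15). Tspan10, a further ADAM10 partner, was lower by -2.03 (SE 0.0205): it was at 372 ± 4.13 CPM in B16-F10 tumor cells, 80.9 ± 1.64 in OVA tumor cells and 1.22 ± 0.409 and 1.34 ± 0.303 in the T cell groups. Of the proteins that ADAM10 and ADAM17 shed, 24 of 25 tested genes were higher in OVA tumor cells and 1, Cdh2, was lower (-0.54), against 42.0% and 37.4% of all genes. Cdh5, the endothelial cadherin and one of the endothelial markers here, was higher by 12.75 and Tnfrsf1b, a TNF receptor, by 8.22. In T cells 14 were higher and 4 lower, against 23.7% and 22.4%. Il2ra (2.15), Lag3 (1.87) and Tnf (1.19) were among the higher, and Fasl (-0.62), Cdh1 (-0.40) and Mertk (-0.31) among the lower.

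Of 19 tested proteoglycan and glycoprotein substrates, 18 were higher in OVA tumor cells and 1 lower, against 42.0% and 37.4% of all genes. Of 18 in T cells 5 were higher, near the 23.7% of all genes, and 8 lower, against 22.4%. Nid2 (0.130 ± 0.0766 to 464 ± 1.36 CPM), Lamb1 (1.31 ± 0.0933 to 463 ± 4.36 CPM) and Bgn (4.49 ± 0.393 to 214 ± 3.74 CPM) were among those that rose in tumor cells. In T cells Eln (0.78), Vwf (0.68, also an endothelial marker here) and Tnc (0.39) were higher, and Nid2 (-0.45), Fbn2 (-0.40) and Hspg2 (-0.21) lower. Of 15 other matrix-degrading proteases, 12 were higher and 2 lower in OVA tumor cells, against 42.0% and 37.4% of all genes. In T cells 3 were higher, near the 23.7% of all genes, and 7 lower, against 22.4%. Gzmb, granzyme B of cytotoxic T cells, was higher by 7.89 in OVA tumor cells and by 3.70 in T cells (129.7 ± 3.03 to 1624 ± 19.4 CPM), as were Prss23 (0.72) and Ece1 (0.30) in T cells, where Fap (-0.78), Ctsk (-0.68) and Dpp4 (-0.45) were lower. Ctss, a cathepsin of antigen-presenting cells, was higher by 7.78 and Htra1 by 7.27 in OVA tumor cells. Hpse, heparanase, was lower by -1.25, from 225 ± 5.04 to 84.6 ± 2.89 CPM, and Ctsk by -0.52. Of the non-enzyme ADAMTS-like genes 4 were tested in tumor cells, of which 1 was higher and 3 lower, against 42.0% and 37.4% of all genes, among them Adamtsl4 (-1.62) and Adamtsl5 (-0.21).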

How the data were processed

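Per the submitters' processing notes, reads were aligned to GRCm39 with HISAT2 2.0.5 and counted with featureCounts 1.6.0. The annotation release, the handling of multiply mapping reads and the strand setting are not given in the sources used here, so reads of overlapping and antisense genes cannot be told apart. The authors deposited unnormalized read counts for each gene and library, and all libraries were used. Levels are CPM by library total, shown as mean ± SD of 3 libraries. Levels per kilobase use the union of exons in GENCODE M21 (GRCm38), which covered all 73 members.

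Tests used R 4.3.3 with edgeR 4.0.16: filterByExpr by group, TMM scaling, quasi-likelihood F tests and Benjamini-Hochberg adjustment over all genes tested, at a threshold of 0.05, with glmTreat against 2-fold. Each comparison of 2 groups was fitted on its 6 libraries and the difference of OVA effects on all 12. Values given as SE were not taken from the fit itself. They are the absolute log2 difference divided by the square root of the F statistic. Where a large difference rests on few counts they can be smaller than counting error. The code was checked on simulated counts. Where a group had 0 counts, folds are lower bounds against 3 counts over the group, and with 1 to 3 counts the ratio carries a 95% Clopper-Pearson interval. Named members had a mean of at least 5 CPM in some group or stood on a list of anchor genes. Others, such as Adamts13, Mmp8, Mmp10, Mmp11, Mmp27 and Adamts15, were singled out after their values were seen. From the related lists, up to 3 called genes with the highest and 3 with the lowest log2 differences at 5 CPM or more were named for the OVA comparisons. Some genes that this rule names are not reported here. The members and lists were chosen with earlier results of these data known. Alternatives were RLE scaling, library totals, scaling to melanoma markers, other filters, DESeq2 1.42.0, a replicate block, a fit over 12 libraries and leaving out each library. Replicates of a group differed by more than counting noise, with a chi-square per degree of freedom of 1.51 to 1.77.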

Additional observations from a re-analysis of the deposited data

Results flagged for a closer look

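For 32 of the 35 named members that could be tested, the OVA effect differed between fractions by edgeR's interaction test over 12 libraries, and in all 32 it was lower in T cells than in tumor cells. Of all 18562 genes tested 69.0% differed in this test, 41.3% lower and 27.7% higher. All tested T cell, endothelial, fibroblast, pericyte, macrophage and neutrophil markers were lower too. The values are the OVA effect in T cells minus that in tumor cells, on the log2 scale. Among MMPs they were -1.84 for Mmp14, -5.62 for Mmp15, -2.15 for Mmp17, -6.24 for Mmp25, -3.71 for Mmp2, -7.12 for Mmp9, -5.08 for Mmp3, -7.58 for Mmp12, -8.42 for Mmp13 and -6.38 for Mmp19. Among ADAMs they were -0.25 for Adam10, -1.74 for Adam11, -0.86 for Adam12, -2.22 for Adam15, -0.57 for Adam17, -2.99 for Adam19, -0.61 for Adam23, -6.40 for Adam8 and -0.54 for Adam9. Among ADAMTSs they were -0.38 for Adamts1, -1.53 for Adamts10, -0.82 for Adamts12, -1.19 for Adamts14, -6.40 for Adamts2, -3.44 for Adamts4, -3.68 for Adamts5, -3.98 for Adamts7, -10.50 for Adamts8 and -6.46 for Adamts9. The TIMPs gave -1.55 for Timp1, -0.66 for Timp2 and -4.47 for Timp3. The values for Adamts8 and Mmp13, which had 0 and 3 counts in B16-F10 tumor cells, depend on the prior count of the fit and are no estimate of size.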

How the results depend on the processing

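Of 2442 results for single named members under the alternatives, 2396 kept their direction and side of the threshold, 32 lost the call, 3 gained one and 11 changed sign. The sign changed for Adamts20 in tumor cells with melanoma marker scaling (0.62). With library totals it changed for Adamts4 (-0.0158) and Adamts9 (-0.0302) in T cells, Adam23 between fractions in B16-F10 tumors (-0.26) and Adam17 between fractions in OVA tumors (-0.0617). Adam23 in B16-F10 tumors also changed with no filter (-0.0545), the fit over 12 libraries (-0.0153) and without replicate 3 of the tumor cells (-0.0752) or of the T cells (-0.0415). With 1 library left out in turn its value ran from -0.0752 to 0.117. Mmp25 in T cells ran from -0.0390 to 0.0250 (without OVA replicate 1), and the Adamts6 difference of OVA effects from -0.219 to 0.00366 (without B16-F10 tumor cell replicate 2). The cause was not tested.

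In tumor cells, melanoma marker scaling moved the median of all genes by 1.15 and made 96.8% of calls higher, against 52.9%, with 0 members lower and 0 lower beyond 2-fold. DESeq2 also gave 0 members lower beyond 2-fold. With 1 library left out in turn that count ran from 0 (without OVA replicate 1) to 1, and the count of members with a higher OVA effect in T cells from 0 (without T cell OVA replicate 2) to 1. Library totals moved the median of all genes by -0.17 in tumor cells, -0.28 and -0.13 between fractions in B16-F10 and OVA tumors and 0.11 for the difference of OVA effects. In T cells they lowered the share of higher calls from 51.3% to 38.7%, and 10 members were higher and 19 lower.

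Whether the replicate numbers pair the libraries was not settled. Correlations of same-numbered deviations were low, from -0.04 to 0.16, and in no comparison were all 3 above 0.1. Between the tumor cell groups, however, all 3 (0.033, 0.161 and 0.092) exceeded the best correlation with another number (0.028, -0.058 and 0.033). In no other comparison did all 3 do so. With the replicate block, member counts higher and lower were 42 and 2 in tumor cells, 14 and 16 in T cells, 39 and 3 in B16-F10 tumors, 28 and 19 in OVA tumors and 1 and 43 for the difference of OVA effects. The calls of Timp4 in T cells and of Mmp3 between fractions in OVA tumors were lost (adjusted p = 0.0540 and 0.0539). Depth limits the members near 3 counts in a group, for which no fold beyond a bound or interval can be given.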
